A study of Homo sapiens with 24 samples.

Results

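The 8 genes described here make S-adenosylmethionine, remove its spent product, rebuild methionine or use the methyl donor: MAT2A, MAT2B, AHCY, AHCYL1, MTR, MTRR, PEMT and MTAP. They were picked by gene symbol from the deposited expression tables, by a rule that uses no measured value, and are 8 of 23595 genes listed. Earlier results of these data were known when the set was drawn up. All 8 were measured in every library and passed the filter on low values in both cell lines.

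The study asked how folic acid deprivation alters the transcriptome under OTX, as its title states. Polyadenylated RNA was sequenced from 2 human acute myeloid leukaemia lines: IMS-M2, a line with mutant NPM1, and U937, a line of monocytic character. Cells of either line were cultured in the presence (+FA) or absence (-FA) of folic acid and received OTX or the solvent DMSO. The 8 groups of 3 libraries are thus IMS-M2 with folic acid and DMSO, IMS-M2 with folic acid and OTX, IMS-M2 without folic acid and DMSO, IMS-M2 without folic acid and OTX, and the same 4 in U937. OTX is abbreviated in the labels and is read here as birabresib (OTX015), which blocks the BET bromodomain proteins. Its dose, the treatment time and the length of deprivation are not stated there. Each leukaemia is represented by a single line, so a difference between the lines is one between 2 cultures. Nothing in the labels ties the 3 libraries of a group to separate cultures, and a p-value then measures only the spread between these samples, which may be technical.

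In the methionine cycle, methionine adenosyltransferase joins methionine to ATP to give S-adenosylmethionine, the methyl donor of nearly all methyltransferases. Each methyl transfer leaves S-adenosylhomocysteine, which inhibits many methyltransferases until adenosylhomocysteinase splits it into adenosine and homocysteine. Methionine synthase then returns homocysteine to methionine with a methyl group from 5-methyltetrahydrofolate, which ties the cycle to folic acid. Leukaemia cells draw on the cycle for the methylation of histones, DNA, RNA and phospholipids.

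Levels are FPKM as the authors deposited them, that is, fragments mapped to a gene per kilobase of its transcript, scaled by the fragments of the library. A change is thus relative to the rest of the library, and in bulk cultures fewer expressing cells and less RNA per cell cannot be told apart. Changes are differences of log2(FPKM + 1), which understates the change of low genes, and were tested with limma. Genes were called where the adjusted p (Benjamini-Hochberg, over all genes tested) was below 0.05. Errors are standard errors (SE), intervals are 95% confidence intervals, and values of a group are mean ± SD over 3 libraries.

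The summed FPKM of a library ranged from 522658.7 to 644841, and 10418 to 10894 genes reached 1 FPKM. The number of reads behind them is unknown. HEXIM1, a gene known to rise under BET inhibition, rose in all 4 OTX comparisons, for instance from 6.77 ± 1.04 to 37.2 ± 1.74 FPKM in IMS-M2 with folic acid. MYC fell from 197 ± 11.2 to 142 ± 0.748 FPKM there, and from 177 ± 9.74 to 20.2 ± 2.59 FPKM in U937 without folic acid. Of 7 haematopoietic and myeloid markers, 6 or 7 reached 1 FPKM in each group, and their summed level ranged from 492.8 to 3130 FPKM. None of 6 epithelial and stromal markers did, and EPCAM and KRT19 were at 0 in all groups. Of the lymphoid (5 listed), erythroid (4) and hepatocyte (3) markers, at most 1 of a list reached 1 FPKM in a group. Their summed levels ranged from 0.1232 to 3.954, from 0 to 3.481 and from 0 to 0.4855 FPKM. The 3.481 FPKM came from HBB in IMS-M2 without folic acid under OTX, and the lymphoid sum was 3.954 FPKM with DMSO and 0.1232 FPKM with OTX in IMS-M2 with folic acid. The part of these low levels in the results was not tested.

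OTX lowered PEMT in both lines and in both media, and it was the only one of the 8 genes called in all 4 comparisons. In U937, AHCY, MTR and MTAP fell with it, with and without folic acid, while in IMS-M2 neither MTR nor MTAP passed the test. In IMS-M2 with folic acid 3 of 8 genes were called, MAT2A, AHCY and PEMT, all lower, and the same rule called 63.2% of 11223 genes, 29.8% as higher and 33.4% as lower. Without folic acid PEMT alone was called in IMS-M2, against 57.5% of all genes, 27.5% higher and 30% lower. In U937 with folic acid 5 of 8 were called, 4 lower and MAT2B higher, against 56.1% of 11194 genes, 29.1% higher and 27% lower. In U937 without folic acid 5 of 8 were called, 4 lower and MTRR higher, against 59.8% of all genes, 28% higher and 31.7% lower. The median log2 change of the 8 genes was -0.10, 0.02, -0.20 and -0.45 in the same order, beside -0.03, -0.01, 0.02 and -0.02 over all genes tested. With so many genes called everywhere, the number of calls among the 8 genes is not by itself particular to them. In IMS-M2 with folic acid the libraries of the same number deviated together, and the number of calls depended on how this was modelled. A replicate block over the 12 libraries of the line gave 5 calls, adding MAT2B (adjusted p = 0.0233, limma) and MTRR (0.0142). It treats libraries of the same number as paired across the media too, which was not checked. A block within the 6 libraries of IMS-M2 with folic acid gave 2 calls, without AHCY (adjusted p = 0.0539, limma).

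**Figure D1:**
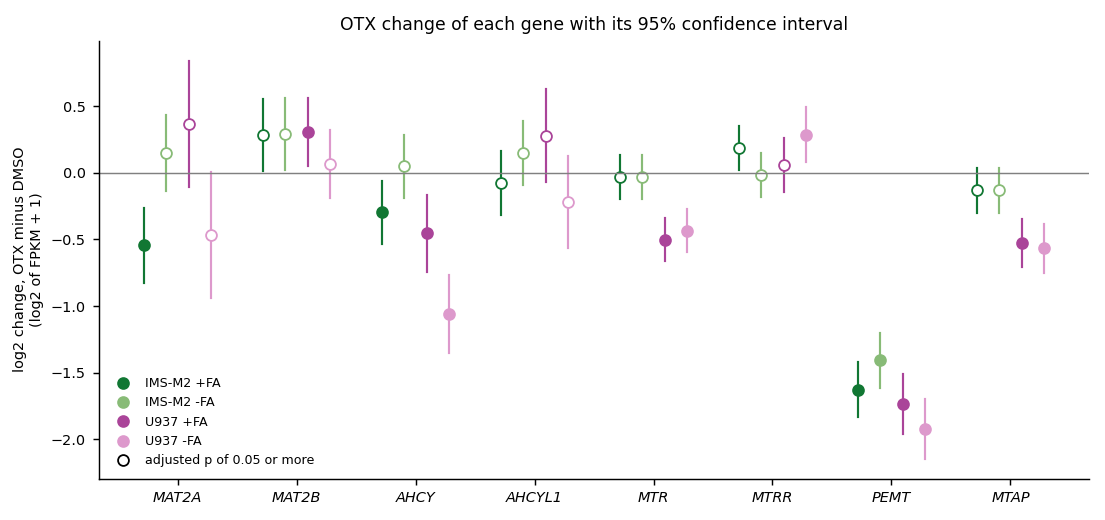
Difference of log2(FPKM + 1) between OTX and DMSO (y axis) for each of the 8 genes (x axis) in the 4 combinations of line and medium. Points are limma estimates from 3 libraries against 3, lines are 95% confidence intervals, and open points have an adjusted p of 0.05 or more. PEMT lies between -1.41 and -1.92 in all 4, and MTR and MTAP lie below 0 with filled points only in U937.

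MAT2A encodes the catalytic subunit of the methionine adenosyltransferase found outside the adult liver, and MAT2B its regulatory subunit. The tables place MAT2A at chr2:85766100-85788657 (hg19) together with GGCX, the vitamin K-dependent gamma-glutamyl carboxylase, so reads in shared sequence may have been split between the 2 genes. MAT2B lies at chr5:162930069-162946359. GGCX itself was at 4.17 to 12.1 FPKM in group means, against 115 to 235 FPKM for MAT2A.

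In IMS-M2 with folic acid, MAT2A stood at 181, 238 and 285 FPKM in the DMSO libraries and at 156, 153 and 166 FPKM in the OTX libraries. Every OTX library was below every DMSO library, although the DMSO libraries spread widely (235 ± 52.0 FPKM). The log2 change was -0.54 ± 0.130 (SE, adjusted p = 0.00285, limma), and it stayed called when any of the 12 libraries was left out. Without folic acid the DMSO libraries were at 151, 156 and 166 FPKM and the OTX libraries at 188, 164 and 172 FPKM, and the groups overlapped. The log2 change there was 0.15, with an interval from -0.13 to 0.43 (adjusted p = 0.349, limma).

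In U937 with folic acid, MAT2A stood at 159, 105 and 97.3 FPKM with DMSO and at 123, 155 and 185 FPKM with OTX. The first DMSO library lay among the OTX libraries, and the log2 change of 0.37 had an interval from -0.11 to 0.84 (adjusted p = 0.168, limma). Without that library it was 0.58 with an adjusted p of 0.0318 (limma). In U937 without folic acid the DMSO libraries were at 150, 128 and 209 FPKM and the OTX libraries at 110, 110 and 124 FPKM. The groups did not overlap, but the log2 change of -0.47 missed the threshold (adjusted p = 0.0823, limma). It passed without the DMSO library of column 1 (-0.62, adjusted p = 0.0334, limma) and without the first DMSO library with folic acid, which shares the estimate of spread (adjusted p = 0.0459, limma). GGCX was called in U937 with folic acid, at 0.55 on the log2 scale (adjusted p = 0.00931, limma), and in no other OTX comparison.

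MAT2B had log2 changes between 0.28 and 0.30 in 3 of the 4 comparisons, of which only that in U937 with folic acid was called. IMS-M2 with folic acid went from 38.8, 54.0 and 50.3 FPKM to 55.9, 64.4 and 53.5 FPKM, with groups that overlapped. In IMS-M2 without folic acid it went from 48.3, 48.9 and 46.0 FPKM to 57.7, 66.6 and 52.1 FPKM, and every OTX library was above every DMSO library. The log2 changes were 0.28 and 0.29 and missed the threshold (adjusted p = 0.0611 and 0.0626, limma). Scaling each library to the median of its genes brought both past it (adjusted p = 0.0215 and 0.0342, limma). With folic acid the call was also made without DMSO library 2 (adjusted p = 0.0261, limma). Without folic acid it was made without OTX library 3 (0.0366) and without DMSO library 1 with folic acid (0.0177).

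In U937 with folic acid, MAT2B stood at 43.9, 37.3 and 33.8 FPKM with DMSO and at 41.9, 50.2 and 50.4 FPKM with OTX. The log2 change of 0.30 ± 0.117 (SE) was called (adjusted p = 0.044, limma), although 1 OTX library lay below the highest DMSO library. The call was lost with an adjusted p of 0.0545 to 0.169 (limma) when DMSO library 2 or 3, OTX library 2 or 3, or, among the libraries without folic acid, DMSO column 0 or any OTX column was left out. A replicate block within the 6 libraries also ended it (adjusted p = 0.151, limma), as did a fit of the 6 libraries alone and a fit without the filter on low values. In U937 without folic acid the change was 0.07, with an interval from -0.19 to 0.32.

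AHCY encodes adenosylhomocysteinase, the enzyme that removes S-adenosylhomocysteine, and AHCYL1 a related protein that binds the inositol trisphosphate receptor and is not known to split S-adenosylhomocysteine. They lie at chr20:32868070-32899608 and chr1:110527386-110566364 (hg19). On the FPKM scale, which is per length, AHCY had the highest mean level of the 8 genes in all 8 groups, from 133 ± 6.61 to 282 ± 47.7 FPKM, and MAT2A the next.

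OTX lowered AHCY in U937 in both media. Without folic acid it stood at 279, 235 and 331 FPKM with DMSO and at 139, 126 and 135 FPKM with OTX, so the OTX libraries lay far below. OTX changed it by -1.06 ± 0.133 (SE, log2, adjusted p = 3.98e-05, limma). With folic acid it went from 278, 209 and 223 FPKM to 175, 160 and 179 FPKM, again without overlap. The log2 change was -0.45 ± 0.133 (SE, adjusted p = 0.0123, limma). Both calls held without any one of the 12 libraries of the line.

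In IMS-M2 with folic acid, AHCY stood at 214, 261 and 275 FPKM with DMSO and at 205, 188 and 214 FPKM with OTX. OTX library 3 was level with the first DMSO library, and the log2 change of -0.30 ± 0.110 (SE) was called (adjusted p = 0.0313, limma). The call was lost after scaling each library to the median of its genes (adjusted p = 0.0515, limma). A fit of the 6 libraries alone, with or without a replicate block, did not make the call either. The call was also lost without DMSO library 2 or 3 or OTX library 1 or 2 (adjusted p from 0.0607 to 0.117, limma). In IMS-M2 without folic acid the DMSO libraries were at 194, 178 and 214 FPKM and the OTX libraries at 206, 183 and 218 FPKM, in the same range. The change was 0.05, with an interval from -0.19 to 0.29.

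AHCYL1 was called in none of the OTX comparisons and ranged from 37.9 to 60.7 FPKM over the 24 libraries. Its highest group mean was 1.28 times its lowest, the smallest ratio of the 8 genes. Its log2 changes were -0.08 and 0.15 in IMS-M2 and 0.28 and -0.22 in U937, with and without folic acid (limma). In IMS-M2 without folic acid every OTX library (48.3 to 49.8 FPKM) was above every DMSO library (40.9 to 47.0 FPKM). None of the 4 changes reached an unadjusted p below 0.05 (limma). In IMS-M2 the intervals ran from -0.32 to 0.16 with folic acid and from -0.09 to 0.39 without it. In U937 they ran from -0.07 to 0.63 with folic acid and from -0.56 to 0.13 without it. In each comparison, a change within its own interval cannot be told from none. Without DMSO library 1 the change in IMS-M2 with folic acid was -0.22 (adjusted p = 0.029, limma).

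Within the DMSO groups, MAT2A, MAT2B, AHCY and AHCYL1 often shared their highest or lowest library. All 4 were, in IMS-M2 with folic acid, lowest in library 1, which had the lowest summed FPKM of the 3 (535706.7). In U937 all 4 were highest in library 1 with folic acid and in column 2 without it, which had the highest summed FPKM of their groups (620930 and 644841). The part of these library differences in the results was not tested.

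**Figure D2:**
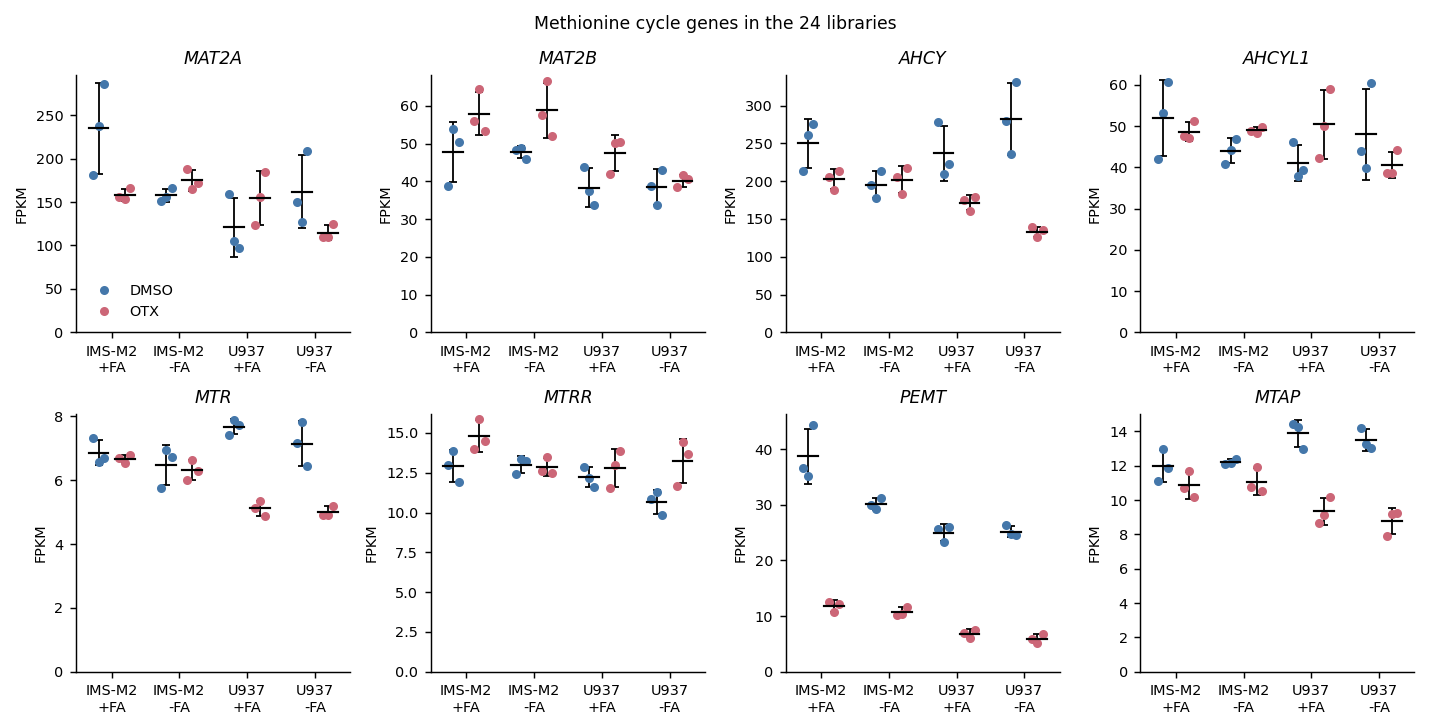
FPKM (y axis, starting at 0) of each of the 8 genes in the 4 combinations of line and medium (x axis), with DMSO in blue and OTX in red. Points are the 24 libraries, horizontal bars are group means and error bars are SD (n = 3). PEMT is at 23.2 to 44.4 FPKM in all DMSO libraries and at 5.08 to 12.6 FPKM in all OTX libraries.

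MTR encodes methionine synthase, the cobalamin-dependent enzyme that takes the methyl group from 5-methyltetrahydrofolate, and MTRR the reductase that restores its cobalamin cofactor. They lie at chr1:236958580-237067281 and chr5:7869216-7901235 (hg19). MTR had the lowest mean level of the 8 genes in all 8 groups, from 5.01 to 7.68 FPKM.

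OTX lowered MTR in U937 and moved it little in IMS-M2. In U937 with folic acid it stood at 7.41, 7.89 and 7.74 FPKM with DMSO and at 5.14, 5.35 and 4.89 FPKM with OTX. In U937 without folic acid it stood at 7.18, 7.83 and 6.44 FPKM with DMSO and at 4.92, 4.90 and 5.20 FPKM with OTX. No OTX library reached the lowest DMSO library in either medium. The log2 changes were -0.50 ± 0.0736 (SE, adjusted p = 0.00014, limma) and -0.44 ± 0.0736 (SE, adjusted p = 0.000362, limma).

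In IMS-M2 the MTR libraries of DMSO and OTX overlapped, at 6.57 to 7.31 against 6.54 to 6.77 FPKM with folic acid and at 5.77 to 6.96 against 6.01 to 6.62 FPKM without it. The log2 change was -0.03 in both media. The intervals ran from -0.20 to 0.13 in both (limma), which does not reach the estimates in U937.

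MTRR did not follow MTR. In U937 without folic acid it went from 10.8, 11.3 and 9.85 FPKM with DMSO to 11.7, 14.4 and 13.6 FPKM with OTX, without overlap. The log2 change was 0.29 ± 0.0937 (SE, adjusted p = 0.0204, limma). The call was lost without DMSO column 2 (adjusted p = 0.0652, limma), OTX column 1 (0.0891) or OTX column 2 (0.0646). In IMS-M2 with folic acid it went from 13.0, 13.9 and 11.9 FPKM to 14.0, 15.9 and 14.5 FPKM, also without overlap, and narrowly missed the threshold (log2 change 0.18, adjusted p = 0.0512, limma). It passed without the filter on low values (adjusted p = 0.0486, limma), after scaling each library to the median of its genes (0.0191) and with the replicate block over the line (0.0142). It also passed without DMSO library 2 (adjusted p = 0.0308, limma) or OTX library 1 (0.0481). The changes in the other 2 comparisons were -0.02 in IMS-M2 without folic acid and 0.06 in U937 with it.

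PEMT encodes phosphatidylethanolamine N-methyltransferase, which spends S-adenosylmethionine to turn phosphatidylethanolamine into phosphatidylcholine and is best known from the liver. It lies at chr17:17408876-17495017 (hg19). It gave the largest change of the 8 genes in every OTX comparison, and no other of the 8 genes kept the DMSO and OTX libraries apart over the whole series.

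With folic acid, PEMT in IMS-M2 fell from 36.6, 35.1 and 44.4 FPKM with DMSO to 12.6, 10.7 and 12.2 FPKM with OTX. In IMS-M2 without folic acid it fell from 30.0, 29.2 and 31.2 FPKM to 10.3, 10.3 and 11.7 FPKM. Every DMSO library stood far above every OTX library in each medium. The log2 changes were -1.63 ± 0.0951 (SE, adjusted p = 1.9e-08, limma) and -1.41 ± 0.0951 (SE, adjusted p = 8.93e-08, limma).

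In U937 with folic acid, PEMT fell from 25.7, 23.2 and 26.1 FPKM to 6.96, 5.99 and 7.53 FPKM. In U937 without folic acid it fell from 26.3, 24.7 and 24.5 FPKM to 5.93, 5.08 and 6.81 FPKM. The separation was again complete. The log2 changes were -1.74 ± 0.103 (SE, adjusted p = 2.08e-07, limma) and -1.92 ± 0.103 (SE, adjusted p = 9.14e-08, limma).

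As a ratio of mean FPKM, DMSO over OTX, the fall of PEMT was 3.27-fold and 2.80-fold in IMS-M2 and 3.66-fold and 4.24-fold in U937, with and without folic acid. A log2 change as low as that of PEMT or lower was seen in 2.83% and 3.17% of genes tested in IMS-M2 and in 0.715% and 0.67% in U937. The calls held in every alternative computed.

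PEMT has several annotated starts, and RefSeq promoter windows (GRCh38.p14, 250 bases before to 50 after a start) were searched because it moved in every comparison. The windows of 7 of the 8 genes were found, 15 in all, but not of MTRR. The palindrome CACGTG, the E-box core bound by MYC and related factors, occurred in 1 of the 15 windows and in 7.26% of 35116 windows of all genes. That window is the one of PEMT at chr17:17577447-17577746 on the minus strand, with the motif starting 83 bases before the start. The window of the farthest upstream start, chr17:17591659-17591958 on the minus strand, holds no match to it. The expression tables do not say which start was used. Both are shown, with the motif in capitals.
PEMT, farthest downstream start: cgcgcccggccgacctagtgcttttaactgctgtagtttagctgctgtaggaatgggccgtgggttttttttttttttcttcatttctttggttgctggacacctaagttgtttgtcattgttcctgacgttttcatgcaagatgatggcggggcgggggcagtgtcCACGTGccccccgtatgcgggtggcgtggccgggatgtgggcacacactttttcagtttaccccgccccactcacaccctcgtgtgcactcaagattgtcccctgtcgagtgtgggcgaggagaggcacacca
PEMT, farthest upstream start: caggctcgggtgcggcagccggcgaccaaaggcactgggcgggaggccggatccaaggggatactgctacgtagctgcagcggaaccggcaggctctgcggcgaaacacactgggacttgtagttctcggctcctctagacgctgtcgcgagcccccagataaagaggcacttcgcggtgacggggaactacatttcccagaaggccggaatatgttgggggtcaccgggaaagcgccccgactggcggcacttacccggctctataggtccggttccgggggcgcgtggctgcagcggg

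MTAP encodes methylthioadenosine phosphorylase, which recovers adenine and a methionine precursor from the methylthioadenosine left by polyamine synthesis. It lies at chr9:21802634-21865969 (hg19), beside CDKN2A and CDKN2B, and is often lost with them in cancer. It was transcribed in both lines, at 7.93 to 14.5 FPKM over the 24 libraries.

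OTX lowered MTAP in U937. With folic acid it fell from 14.5, 14.2 and 13.0 FPKM with DMSO to 8.67, 9.16 and 10.2 FPKM with OTX. Without folic acid it fell from 14.2, 13.3 and 13.0 FPKM to 7.93, 9.20 and 9.25 FPKM. No libraries overlapped, and the log2 changes were -0.53 ± 0.0831 (SE, adjusted p = 0.00024, limma) and -0.57 ± 0.0831 (SE, adjusted p = 0.000129, limma). In IMS-M2 MTAP stood at 11.1, 13.0 and 11.9 FPKM against 10.7, 11.7 and 10.2 FPKM with folic acid, and at 12.1, 12.1 and 12.4 FPKM against 10.8, 11.9 and 10.5 FPKM without it. These groups overlapped with folic acid and did not without it. The log2 change was -0.13 in both media and was not called (adjusted p = 0.163 and 0.166, limma), with intervals from -0.30 to 0.04.

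Of the 9 neighbours of MTAP on 9p21 that were listed, 4 could be tested in IMS-M2 and 6 in U937. In IMS-M2 2 rose and 1 fell with folic acid and 3 rose and 1 fell without it, and in U937 3 rose and 0 fell in each medium, beside 56.1% to 63.2% of all genes called. FOCAD rose in all 4 comparisons, from 11.8 to 20.4 FPKM in U937 with folic acid (log2 change 0.75, adjusted p = 9.75e-05, limma). MLLT3, a transcription elongation factor subunit and a fusion partner in leukaemia, also rose in all 4, by a log2 of 0.84 in the same cells (adjusted p = 4.41e-05, limma). CDKN2B, a cell cycle inhibitor, rose in U937 in both media, from 0.785 to 2.84 FPKM (+FA) and from 1.03 to 3.42 FPKM (-FA) (log2 change 1.10 and 1.12, adjusted p = 7.49e-07 and 5.54e-07, limma). It was at or below 0.016 FPKM in all groups of IMS-M2. CDKN2A, another cell cycle inhibitor, fell in IMS-M2 from 6.30 to 2.14 FPKM (+FA) and from 7.94 to 1.76 FPKM (-FA) (log2 change -1.21 and -1.69, adjusted p = 2.6e-06 and 1.5e-07, limma). In U937 it was at 76.2 to 111 FPKM in group means and was not called. KLHL9 rose in IMS-M2 without folic acid by a log2 of 0.30 (adjusted p = 0.0115, limma) and was called nowhere else. The antisense gene CDKN2B-AS1 was at 0.61 FPKM or more in the groups of U937 and at most 0.0397 FPKM in IMS-M2, and was not called. The libraries were stranded, but whether reads were counted by strand is not given in the sources used here. Reads of CDKN2B and its antisense partner may therefore have been mixed. DMRTA1, IFNE and ELAVL2 were at or near 0 in all groups. MTAP and its neighbours did not move in one direction: in U937 MTAP fell while FOCAD, MLLT3 and CDKN2B rose.

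MTR and MTAP fell in the same line and by similar amounts, and their promoter windows are shown for that reason. The NF-Y core CCAAT, searched on both strands, occurred in 6 of the 15 windows of the 7 genes, those of 5 genes, and in 34.6% of windows of all genes. The 2 windows of MTR, from 236795031 and from 236795042, overlap almost fully and hold the same 3 sites, so these sites are counted in both. The sequence TATAAA, the core of the TATA box, was counted on either strand and at any position in a window. It occurred in 3 of the 15 and in 11.5% of all windows, and a match need not be a TATA box. The MTR window at chr1:236795031-236795330 on the plus strand holds CCAAT 3 times, starting 90, 72 and 43 bases before the start, and the MTAP window at chr9:21802386-21802685 on the plus strand holds it once, 52 bases before the start. MTAP also has TATAAA starting 215 bases before the start. MAT2A holds CCAAT too, 88 bases before its start, and TATAAA 32 bases before it. MAT2B and AHCYL1 hold CCAAT 93 and 142 bases before a start, and AHCYL1 holds TATAAA 21 bases after another. No window of AHCY or PEMT holds CCAAT or TATAAA. Whether these motifs bear on the OTX changes was not tested. Capitals mark the motifs, with CCAAT read as ATTGG on the other strand.
MTR, first start: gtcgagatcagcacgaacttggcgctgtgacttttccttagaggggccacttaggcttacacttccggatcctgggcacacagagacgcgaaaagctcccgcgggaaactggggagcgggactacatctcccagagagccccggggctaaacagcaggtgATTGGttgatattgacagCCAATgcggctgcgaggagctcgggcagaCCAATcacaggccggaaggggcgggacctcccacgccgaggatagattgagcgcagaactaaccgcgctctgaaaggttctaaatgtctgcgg
MTAP: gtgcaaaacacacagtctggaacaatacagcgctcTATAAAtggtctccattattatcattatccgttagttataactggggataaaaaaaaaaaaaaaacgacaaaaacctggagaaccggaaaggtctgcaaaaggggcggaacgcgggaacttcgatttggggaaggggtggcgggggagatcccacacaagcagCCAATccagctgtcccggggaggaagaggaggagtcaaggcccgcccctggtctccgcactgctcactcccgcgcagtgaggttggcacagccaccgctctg

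Whether folic acid altered the response was tested as the OTX change without folic acid minus the change with it. In IMS-M2 only MAT2A of the 8 genes was called, against 6.94% of all genes tested. It fell with folic acid and was not called without it, and the changes differed by 0.69 ± 0.184 (SE) on the log2 scale with an interval from 0.29 to 1.09 (adjusted p = 0.0434, limma). This call was thin. It was lost when genes with low values were kept in the test (adjusted p = 0.0798, limma) and when any of 10 of the 12 libraries was left out, with an adjusted p of 0.0624 to 0.123 (limma). Only without DMSO library 1 with folic acid, or OTX library 2 without it, was the call kept. AHCY differed by 0.34 in the same direction and was not called (adjusted p = 0.158, limma), except without DMSO library 1 with folic acid (0.45, adjusted p = 0.022, limma). AHCYL1 was called without the same library too (0.37, adjusted p = 0.0235, limma).

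In U937 none of the 8 genes was called for this difference by limma, against 2.01% of all genes. MAT2A, AHCY and AHCYL1 had an unadjusted p below 0.05 (limma), and the share of all genes at that looser threshold was not computed. Among all calls of that comparison 36.9% were higher without folic acid, or 51.2% after scaling each library to the median of its genes. AHCY fell by 0.61 more on the log2 scale without folic acid (interval from -1.02 to -0.20, adjusted p = 0.0679, limma). MAT2A differed by -0.83 (interval from -1.50 to -0.16, adjusted p = 0.0928, limma). Both were called when the first DMSO library with folic acid was left out (adjusted p = 0.0262 for AHCY and 0.031 for MAT2A, limma). The same held without the DMSO library of column 1 without folic acid (0.0224 and 0.039). For MTR, MTAP and PEMT the difference was 0.07, -0.04 and -0.19 in U937 and 0.00, 0.00 and 0.22 in IMS-M2. The intervals for PEMT ran from -0.50 to 0.13 and from -0.07 to 0.51, so a difference of that size between media cannot be told from none.

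The DMSO levels with and without folic acid come from separate tables, which may have been normalized separately, so they were not tested. In IMS-M2 all DMSO libraries without folic acid were below all those with it for MAT2A, AHCY and PEMT, by -0.55, -0.35 and -0.34 on the log2 scale, beside a median of -0.02 over all genes. For AHCY the nearest libraries were level, at 213.605 FPKM without folic acid and 213.638 FPKM with it. The other 5 genes overlapped. In U937 the media overlapped for 7 of the 8 genes, and MTRR was lower without folic acid by -0.18, beside a median of 0.05. MAT2A was 0.42 higher there, within the spread of its libraries. The share of all genes whose DMSO libraries separate in this way was not computed, so nothing particular to these genes is read from it. For PEMT the order of group means ran from IMS-M2 with folic acid and DMSO (38.7 ± 4.98 FPKM) through IMS-M2 without it (30.1 ± 1.01), U937 without it (25.2 ± 1.01) and U937 with it (25.0 ± 1.55) to the 4 OTX groups, and only the last 2 of these DMSO groups overlapped. The 4 OTX groups followed in the order IMS-M2 with folic acid (11.8 ± 1.01 FPKM), IMS-M2 without it (10.8 ± 0.780), U937 with it (6.83 ± 0.781) and U937 without it (5.94 ± 0.864). Within each line these OTX groups overlapped.

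The difference between the lines was tested as the OTX change in U937 minus that in IMS-M2 in the same medium, over all 24 libraries. With folic acid 3 of 8 genes were called, against 50.6% of 12197 genes, and without it 5 of 8, against 43% of all genes. MTR differed by -0.47 ± 0.0975 (SE, adjusted p = 0.000545, limma) with folic acid and by -0.41 ± 0.0975 (SE, adjusted p = 0.00233, limma) without it. MTAP differed by -0.40 ± 0.108 (SE, adjusted p = 0.00494, limma) and by -0.44 ± 0.108 (SE, adjusted p = 0.00302, limma). For these 2 genes the fall in U937 was thus larger than in IMS-M2 in both media, and the calls held when any library was left out.

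For MAT2A, AHCY and PEMT the comparison of the lines gave other results in the 2 media. With folic acid MAT2A differed by 0.91 ± 0.267 (SE, adjusted p = 0.00799, limma), having fallen in IMS-M2 and not in U937. Without folic acid it differed by -0.61 and was not called (adjusted p = 0.0702, limma), except without the first DMSO library of U937 with folic acid (adjusted p = 0.0403, limma) or DMSO column 1 without it (0.0249). AHCY differed by -1.11 ± 0.175 (SE, adjusted p = 3.91e-05, limma) without folic acid and by -0.16 with it, with an interval from -0.52 to 0.21. PEMT fell further in U937 than in IMS-M2 without folic acid, by -0.52 ± 0.140 (SE, adjusted p = 0.00591, limma), and differed by -0.11 with folic acid, with an interval from -0.40 to 0.18. MTRR differed by 0.30 without folic acid (adjusted p = 0.0429, limma), a call lost on leaving out any of 11 of the 24 libraries, with an adjusted p of 0.0501 to 0.123 (limma). Whether the differences between lines themselves differed between media was not tested.

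Other enzymes around the cycle were counted from lists of known function, and each count is to be read against the share of all genes called. That was 63.2%, 57.5%, 56.1% and 59.8% in IMS-M2 with and without and in U937 with and without folic acid, the order used for the list medians. The median log2 changes of all genes were -0.03, -0.01, 0.02 and -0.02. Of 8 further enzymes of methionine and homocysteine 5 could be tested, since the liver enzymes MAT1A, BHMT and BHMT2 were at or near 0. In IMS-M2 2 rose and 1 fell in each medium, and in U937 2 rose and 3 fell with folic acid and 1 rose and 2 fell without it. Over all genes 27.5% to 29.8% were called higher and 27% to 33.4% lower, and the medians of the list were 0.19, 0.14, -0.69 and -0.27. CBS, which diverts homocysteine to cystathionine, fell in all 4 comparisons, from 102 to 37.3 FPKM in IMS-M2 with folic acid (log2 change -1.42, adjusted p = 3.07e-08, limma) and from 15.1 to 2.82 FPKM in U937 without it (-2.08, adjusted p = 3.43e-07). AHCYL2, a relative of AHCYL1, rose by 0.51 in IMS-M2 without folic acid (adjusted p = 0.000217, limma). CTH, the next enzyme after CBS, rose in IMS-M2 with folic acid by 0.26 (adjusted p = 0.034, limma) and fell in U937 by 0.69 with folic acid (adjusted p = 2.2e-05, limma). ADK, which removes the adenosine that adenosylhomocysteinase releases, fell in U937 with folic acid by 0.71 (adjusted p = 0.000384, limma).

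Among 7 genes of cobalamin handling, which supply the cofactor of methionine synthase, 1 rose and 5 fell in IMS-M2 with folic acid, and 0 rose and 4 fell without it. In U937 5 could be tested, of which 0 rose and 2 fell with folic acid and 1 rose and 2 fell without it. The share of all genes called lower was 33.4%, 30%, 27% and 31.7%, and the medians of the list were -0.59, -0.49, -0.25 and -0.15. MMACHC, which processes cobalamin on entry into the cell, fell in all 4, from 8.15 to 1.62 FPKM in IMS-M2 with folic acid (log2 change -1.80, adjusted p = 6.46e-09, limma). The cobalamin carriers TCN2 and TCN1 fell in IMS-M2 in both media, with log2 changes of -1.68 for TCN2 with folic acid (adjusted p = 2.01e-08, limma) and -1.61 for TCN1 without it (adjusted p = 4.42e-09, limma), both from low levels. LMBRD1, which takes part in the release of cobalamin from lysosomes, rose in IMS-M2 with folic acid by 0.37 (adjusted p = 0.0182, limma).

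Of 7 genes of polyamine synthesis and of the salvage that follows MTAP, 1 rose and 1 fell in IMS-M2 in each medium, 1 rose and 3 fell in U937 with folic acid, and 0 rose and 3 fell in U937 without it. The 2 calls of 7 in IMS-M2 are a smaller share than the 63.2% and 57.5% of all genes, and the 4 and 3 of 7 in U937 compare with 56.1% and 59.8%. The medians were -0.09, -0.08, -0.28 and -0.22. SRM, spermidine synthase, whose reaction releases methylthioadenosine, fell in all 4, from 336 to 133 FPKM in U937 without folic acid (log2 change -1.34, adjusted p = 2.83e-07, limma). SMS, spermine synthase, and ENOPH1, a salvage enzyme, fell in the same cells by 0.44 and 0.93 (adjusted p = 0.00103 and 0.00248, limma). ADI1, the dioxygenase near the end of the salvage path, rose in 3 of the 4, from 108 to 235 FPKM in IMS-M2 without folic acid (log2 change 1.11, adjusted p = 8.66e-06, limma). In U937 with folic acid MTAP fell while ADI1 rose by 0.83 (adjusted p = 0.000185, limma). In IMS-M2 neither MTAP nor a later salvage step was called lower, and in U937 without folic acid none was called higher.

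Besides PEMT, 12 genes of small molecule and lipid methylation and of S-adenosylmethionine transport were listed and 10 could be tested in each line. In IMS-M2 2 rose and 3 fell with folic acid and 2 rose and 4 fell without it, and in U937 3 rose and 4 fell and 1 rose and 5 fell. These 5, 6, 7 and 6 calls of 10 are close to the 63.2%, 57.5%, 56.1% and 59.8% of all genes called, with medians of -0.06, -0.07, -0.12 and -0.28. COQ3, a methyltransferase of ubiquinone synthesis, fell in all 4 comparisons, by 1.06 in IMS-M2 without folic acid (adjusted p = 1.19e-06, limma). SLC25A26, the mitochondrial carrier of S-adenosylmethionine, fell in U937 with folic acid (log2 change -1.17, adjusted p = 7.66e-06, limma). TPMT, the thiopurine methyltransferase, rose in all 4, by 1.06 in U937 without folic acid (adjusted p = 5.01e-06, limma). PCMT1, a protein repair methyltransferase, rose by 0.44 in IMS-M2 without folic acid (adjusted p = 0.000745, limma), and GNMT, glycine N-methyltransferase, by 0.44 in U937 with it (adjusted p = 0.00564, limma), where it reached only 1.69 FPKM.

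Of 12 RNA methyltransferases and partners, 3 rose and 5 fell in IMS-M2 with folic acid and 2 rose and 4 fell without it. Of the 11 tested in U937, 1 rose and 8 fell with folic acid and 2 rose and 6 fell without it. Over all genes in U937, 29.1% were called higher and 27% lower with folic acid, and 28% and 31.7% without it. In IMS-M2 these shares were 29.8% and 33.4%, and 27.5% and 30%. The medians of the list were -0.07, -0.11, -0.46 and -0.69. METTL16, which methylates the MAT2A transcript, fell in all 4 comparisons, by 1.10 in U937 with folic acid (adjusted p = 9.46e-07, limma). MAT2A was called only in IMS-M2 with folic acid, as lower, where the log2 change of METTL16 was -0.44 (adjusted p = 9.7e-05, limma). Whether the changes of METTL16 and MAT2A are linked was not tested. NOP2 and METTL1, which methylate ribosomal and transfer RNA, fell in U937 without folic acid, METTL1 by 1.35 (adjusted p = 3.99e-06, limma) and NOP2 from 34.6 to 16.9 FPKM (adjusted p = 3.92e-06, limma). METTL14 and WTAP, subunits of the adenosine methyltransferase of messenger RNA, rose in IMS-M2 with folic acid by 0.69 and 0.49 (adjusted p = 0.000166 and 0.000368, limma). METTL3, the catalytic subunit of the same enzyme, named after its values were seen, fell there by 0.54 (adjusted p = 0.000454, limma). It also fell in U937, by 0.34 with folic acid and by 0.86 without it (adjusted p = 0.0286 and 8.31e-05, limma). DIMT1, a ribosomal RNA methyltransferase, rose in IMS-M2 with folic acid by 0.42 (adjusted p = 0.00146, limma) and fell in U937 with folic acid by 0.46 (adjusted p = 0.00596, limma). Of the 5 genes of the PRMT5 complex, an arginine methyltransferase that methylthioadenosine inhibits, 3, 2, 3 and 4 fell and 0 rose, in IMS-M2 with and without and U937 with and without folic acid, beside 33.4%, 30%, 27% and 31.7% of all genes called lower. PRMT5 itself fell from 54.5 to 19.4 FPKM in U937 without folic acid (log2 change -1.44, adjusted p = 1.85e-06, limma). Its partners WDR77 and RIOK1 fell by 0.96 in IMS-M2 with folic acid and by 0.79 in U937 without it (adjusted p = 0.000297 and 0.000351, limma). The medians of this list were -0.46, -0.18, -0.36 and -1.02, and nothing particular to 5 genes is read from them.

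**Figure D3:**
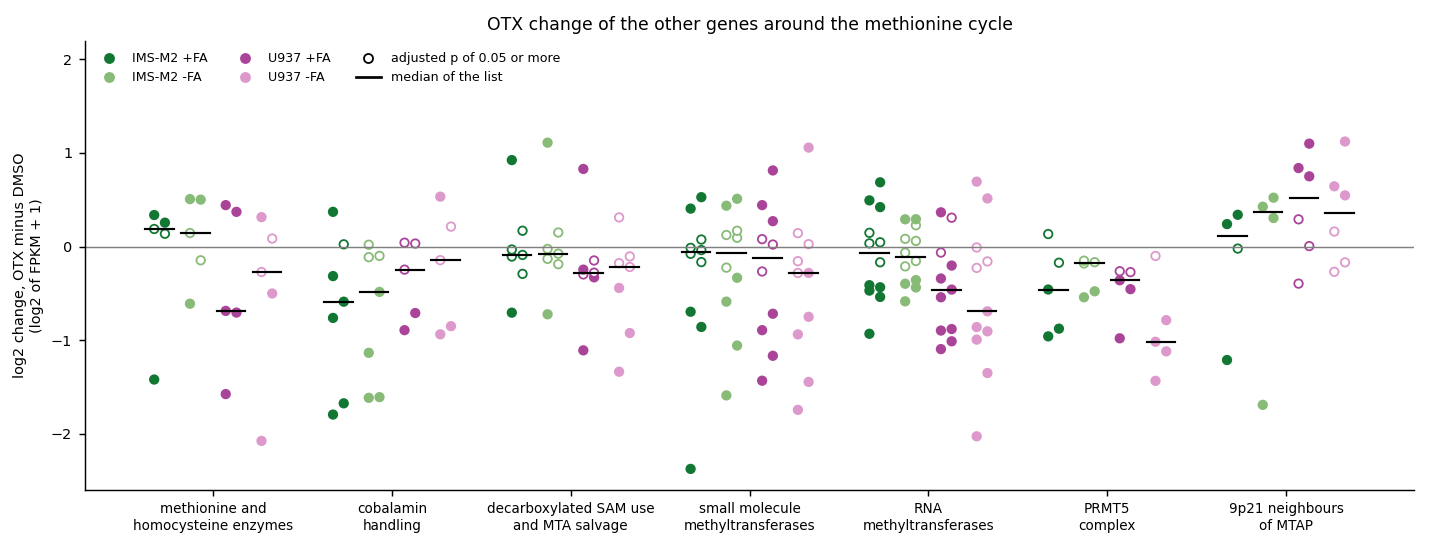
Difference of log2(FPKM + 1) between OTX and DMSO (y axis) for the tested genes of 7 lists around the methionine cycle (x axis), by line and medium. Points are genes, filled where limma's adjusted p is below 0.05, and bars are list medians. In the PRMT5 complex the medians lie between -0.18 and -1.02, and all filled points lie below 0.

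Over the 24 libraries, after the mean of each table was subtracted, MTR and MTAP correlated with r = 0.855, PEMT and MTAP with 0.833, and MAT2A and AHCYL1 with 0.875 (Pearson). MTRR ran against AHCY (r = -0.724) and PEMT (r = -0.613). These are descriptions: the libraries share the OTX treatment and library factors such as the summed FPKM. By the same measure, among 12196 genes, those most like MAT2A included LRIG2 (0.973) and ATRN (0.972), and those most like AHCY were PRMT1 (0.984), PCCB (0.977) and RPSA (0.974). For PEMT, looked up after its values were seen, they were DPAGT1 (0.994), FAH (0.994) and METAP1D (0.993).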

How the data were processed

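The deposited values are FPKM, made by the authors and given in 4 tables, 1 per line and medium, with the same 23595 genes. No header names the unit, which was taken from the fractional values, their sums and the table layout. Tools in the submitters' processing notes are Cuffdiff 2.2.1, TopHat2 2.1.1 and bcl2fastq 2.17.1.14, and the build is hg19. Their order and role are not given. RNA was polyadenylated and libraries were stranded, per the labels' protocols. Whether the tables share 1 normalization is not given in the sources used here, so levels were not tested across tables. Read depth is unknown and no counting interval was computed. In the U937 table without folic acid, columns are numbered from 0 and labels from 1, so those 6 libraries were assigned to groups only.

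Log2(FPKM + 1) was fitted in limma 3.58.1 (R 4.3.3) with a group-means model and an intensity trend, over the 12 libraries of a line or all 24 for differences between lines. A gene entered the test if the mean of any group of the fit reached 1 FPKM. The scripts were checked on simulated data. Same-numbered libraries correlated in their deviations from the group means at 0.258, 0.6 and 0.362 in IMS-M2 with folic acid, which meets the criterion for paired numbers. The main fit has no block, so every printed p is unpaired unless the block is named. In IMS-M2 without folic acid (0.0599, 0.49 and 0.219) and U937 with it (-0.645, 0.351 and -0.627) the numbers did not meet it. Alternatives were a pseudocount of 0.1, no filter, rescaled libraries, no trend, 6 libraries alone, the replicate block and leaving out each library. The block within the 6 libraries of IMS-M2 with folic acid was chosen after seeing the data. The members and lists were chosen with earlier results of these data known. Named were the 8 members, MYC, HEXIM1, up to 3 genes per list and direction with the smallest adjusted p, all 9p21 neighbours, and the 3 genes most like MAT2A and AHCY. A few genes covered by this rule are not reported here.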

Additional observations from a re-analysis of the deposited data

Results flagged for a closer look

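For 6 of the 8 genes the OTX response differed between media or between lines in a test of the difference itself (limma, Benjamini-Hochberg adjusted p below 0.05). MAT2A was flagged in IMS-M2, where its log2 change without folic acid exceeded that with it by 0.69 ± 0.184 (SE, adjusted p = 0.0434, limma), a call that depended on single libraries. With folic acid, the change in U937 minus that in IMS-M2 was 0.91 for MAT2A, -0.47 for MTR and -0.40 for MTAP (adjusted p = 0.00799, 0.000545 and 0.00494, limma). Without folic acid, the same difference was -1.11 for AHCY, -0.41 for MTR, 0.30 for MTRR, -0.52 for PEMT and -0.44 for MTAP (adjusted p = 3.91e-05, 0.00233, 0.0429, 0.00591 and 0.00302, limma). MTR and MTAP were flagged in both media. The differences between lines were common among all genes, of which 50.6% and 43% were called with and without folic acid. Differences between media were called for 6.94% of all genes in IMS-M2 and 2.01% in U937. The share of all genes called in any of these tests was not computed, so the 6 of 8 genes cannot be set against it.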

How the results depend on the processing

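No log2 change of the 8 genes reversed as a called value under any alternative. The calls of PEMT, of MTR, MTAP and AHCY in U937, and of MAT2A in IMS-M2 with folic acid held under all alternatives computed for them. Of 64 log2 changes (8 genes in 8 comparisons), 64 kept their side of the threshold with a pseudocount of 0.1 and without the intensity trend, 61 without the filter and 60 after rescaling. Of 960 values with 1 library left out, 906 did, 36 lost a call and 18 gained one. The replicate block raised the members called from 3 to 5 in IMS-M2 with folic acid and from 1 to 2 without it, added no call elsewhere and ended that of MAT2B in U937 with folic acid. In IMS-M2 without folic acid the count was also 2 after rescaling and in the 6 libraries alone, and 1 to 2 with a library left out.

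The differences between media were the least stable. In IMS-M2, 779 genes and 1 member were called, against 445 genes and 0 members without the filter and 2397 genes with the paired replicate block. With each of the 12 libraries left out in turn, the counts ran from 82 to 3429 genes and from 0 to 3 members. In U937, 225 genes were called, against 31 with a pseudocount of 0.1 and 128 without the filter. With each library left out they ran from 1 to 2704 genes and from 0 to 2 members. The cause was not tested. No paired fit was made for U937 without folic acid, whose columns carry no label number. With 3 libraries a group, small changes, such as those of MTRR and MAT2B, lie close to the limit of detection.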
